A study of Mus musculus with 18 samples.

Results

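The 10 genes described here, Cd68, Csf1r, Itgam, Itgax, Lyz2, Cx3cr1, Mrc1, C1qa, Cybb and Lair1, are expressed mainly by macrophages and other myeloid cells. They were taken by gene symbol from the 55536 genes of the deposited count table, and all 10 passed the low-count filter, which 17590 genes passed. The samples were cultured pancreatic islets of 17-week-old male mice on the NOD.CB17-Prkdcscid/NCrCrl (NOD.SCID) background, measured by bulk RNA-seq. The zinc transporter ZnT8, the product of Slc30a8, was compared in 3 genotypes: ZnT8-/- (KO), ZnT8+/- (Het) and ZnT8+/+ (WT). Islets of each genotype were cultured for 24 h with IL-1β (150 pg/ml), IFN-γ (10 pg/ml) and TNF-α (100 pg/ml), or without cytokines, after an overnight rest. The 6 groups were thus cytokine-treated KO, Het and WT islets and untreated KO, Het and WT islets, with 3 libraries each and 18 in all. Every mouse carried the Prkdc scid mutation, which blocks the formation of mature T and B lymphocytes and leaves myeloid cells in place. The labels do not say how the ZnT8 allele was made, which part of the gene is deleted, or whether the libraries of a group came from separate animals or pools of the 3 mice given. The p-values therefore measure only the spread between these libraries, which may be technical.

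Resident macrophages are the main myeloid cells of the islet, where they lie beside the capillaries and the endocrine cells, take up debris and granule contents and depend on signalling through the CSF1 receptor. Macrophages carry surface receptors for growth factors, chemokines, sugars and matrix, secrete lysozyme and complement C1q, and make superoxide with a membrane oxidase. TNF, IL-1 and interferon gamma act on macrophages as well as on endocrine cells. In bulk islet RNA, fewer macrophages and less of an RNA per macrophage cannot be told apart.

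The stretches before the start sites of Cx3cr1, Lair1, Mrc1, Cd68, Itgam and Itgax are shown because these 6 genes were called between treated and untreated islets in at least 1 genotype, with all libraries or without untreated KO replicate 3, and because Spi1, which encodes the macrophage lineage factor PU.1, was among the 5 genes whose levels varied most like the set. Each line runs 5′ to 3′ on the gene's strand over the 250 bases before the RefSeq start site in build GRCm38.p6, and capitals mark the PU.1 core letters GAGGAA or their reverse complement.
Cx3cr1, chr9:120068297-120068546, minus strand: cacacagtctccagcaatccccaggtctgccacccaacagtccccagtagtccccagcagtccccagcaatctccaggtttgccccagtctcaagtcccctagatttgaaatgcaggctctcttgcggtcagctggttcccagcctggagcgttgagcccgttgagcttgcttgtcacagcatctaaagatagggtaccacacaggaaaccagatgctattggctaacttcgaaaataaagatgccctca
Cd68, chr11:69666171-69666420, minus strand: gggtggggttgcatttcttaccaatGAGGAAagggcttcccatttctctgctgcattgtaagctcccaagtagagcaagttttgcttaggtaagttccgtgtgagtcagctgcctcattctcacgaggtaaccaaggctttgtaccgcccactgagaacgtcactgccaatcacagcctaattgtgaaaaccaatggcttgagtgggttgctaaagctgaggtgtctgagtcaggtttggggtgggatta
Itgax, chr7:128129300-128129549, plus strand: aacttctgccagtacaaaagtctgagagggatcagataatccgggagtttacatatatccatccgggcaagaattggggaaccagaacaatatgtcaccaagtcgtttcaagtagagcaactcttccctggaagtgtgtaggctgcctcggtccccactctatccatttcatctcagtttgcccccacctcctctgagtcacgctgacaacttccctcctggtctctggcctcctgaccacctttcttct
Mrc1, chr2:14229164-14229413, plus strand: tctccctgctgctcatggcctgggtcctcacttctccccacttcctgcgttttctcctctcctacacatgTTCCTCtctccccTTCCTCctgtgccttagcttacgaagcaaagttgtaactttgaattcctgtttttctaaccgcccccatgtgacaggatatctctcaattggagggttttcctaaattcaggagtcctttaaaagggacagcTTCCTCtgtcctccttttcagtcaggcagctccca
Itgam, chr7:128062390-128062639, plus strand: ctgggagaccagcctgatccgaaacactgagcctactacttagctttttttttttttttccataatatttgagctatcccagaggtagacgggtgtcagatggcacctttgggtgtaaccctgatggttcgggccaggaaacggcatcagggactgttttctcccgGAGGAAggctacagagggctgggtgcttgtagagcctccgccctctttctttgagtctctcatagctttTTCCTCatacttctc
Lair1, chr7:4063205-4063454, minus strand: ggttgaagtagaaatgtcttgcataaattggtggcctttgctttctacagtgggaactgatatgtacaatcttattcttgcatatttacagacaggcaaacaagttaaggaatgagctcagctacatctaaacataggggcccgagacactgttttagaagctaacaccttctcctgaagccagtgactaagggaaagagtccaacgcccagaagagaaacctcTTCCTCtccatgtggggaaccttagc
RefSeq gave such a stretch for 8 of the 10 genes. The core letters were present in 4 of the 8 on either strand: 3 times in Mrc1, 2 times in Itgam, and 1 time each in Lair1 and in Cd68. They were absent from the stretches of Itgax, Cx3cr1, Lyz2 and Cybb. Of 32851 promoters of the same length, 23.3% held them. A match of letters is a description and was not tested for binding.

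Lyz2 has a neighbouring copy, Lyz1, and reads from the one can be counted for the other where the sequences are the same. The first 150 coding bases of both are shown for that reason, from the GENCODE M21 transcripts on the minus strand of chromosome 10, with capitals at the bases that differ.
Lyz2: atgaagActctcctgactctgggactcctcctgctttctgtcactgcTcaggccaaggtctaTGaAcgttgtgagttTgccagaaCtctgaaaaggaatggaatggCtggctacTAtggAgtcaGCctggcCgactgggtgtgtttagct
Lyz1: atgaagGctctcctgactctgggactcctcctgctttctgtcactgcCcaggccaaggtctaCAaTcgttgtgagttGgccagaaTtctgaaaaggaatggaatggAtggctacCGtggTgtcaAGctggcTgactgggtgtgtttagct
The 444 coding bases were 95.0% identical, 22 bases differed, and the longest identical run was 118 bases. Lyz1 received between 0 and 3 reads per library in 17 libraries and 46 reads in the other, untreated KO replicate 3, where Lyz2 had 3447 reads.

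Library totals ran from 22990164 to 29946680 reads. Slc30a8 was at 20.0 to 23.2 CPM, which are reads scaled to the TMM-adjusted library total, in treated KO, 32.1 to 56.6 CPM in treated Het and 34.5 to 46.4 CPM in treated WT islets. In untreated islets it was at 44.0 to 55.9 CPM in KO, 95.7 to 126 CPM in Het islets and 98.8 to 125 CPM in WT, so KO transcripts were lower and still present. KO minus WT was -0.96 on the log2 scale with cytokines and -1.23 untreated, with edgeR adjusted p of 0.010 and 0.0027. Markers of cell types other than macrophages were checked from lists. The B cell gene Ms4a1 had 0 reads in all 18 libraries, while Cd79a had 12 to 38. Of 10 neutrophil markers, Mmp8 reached 78, Csf3r 42 and Camp 22 reads in a library, and the other 7 had at most 3. Of 8 dendritic cell markers, Xcr1 and Cd209a had 0 reads in every library, Zbtb46 had 40 to 116, and Ccr7 and Flt3 reached 512 and 85 in untreated KO replicate 3. Of 6 mast cell markers, Cpa3, Mcpt4, Fcer1a and Tpsb2 had 0 reads in every library and Ms4a2 at most 2, while Kit, which other cells also express, had 125 to 468.

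1 library, untreated KO replicate 3, titled KO_4_Non by the submitters, stood apart in immune genes. The 10 genes summed to 304 CPM there, against 99.1 to 154 CPM in the other 17 libraries. The 10 pan-leukocyte genes summed to 177 CPM against 34.9 to 68.2 CPM, and each of them was the highest of the 18 libraries and over 2-fold above the mean of the other 2 untreated KO libraries. T and B lymphocyte markers summed to 21.2 CPM against 0.987 to 3.25 CPM, and Cd3d, a chain of the T cell receptor complex, had 18 reads there and 0 in every other library. Dendritic cell markers summed to 23.8 CPM against 2.19 to 9.79 CPM, and NK cell markers to 1.77 CPM against at most 0.157 CPM. The sum of 8 mesenchymal markers was also highest there, at 3299 CPM against 416 to 2583 CPM. Of these, Col1a1, Col1a2, Col3a1 and Pdgfrb were highest in that library, and Dcn, Lum, Pdgfra and Cspg4 were not. Beta cell markers, at 187161 CPM, lay within the range of the other libraries, 143713 to 232768 CPM.

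Among the 10 genes, the excess in that library was uneven. Relative to the mean of untreated KO replicates 1 and 2, Mrc1 was 10.6-fold, Lyz2 6.02-fold, Itgam 5.29-fold, Csf1r 2.99-fold and C1qa 2.10-fold higher. Lair1, Cybb, Itgax and Cd68 were 1.74-, 1.65-, 1.60- and 1.46-fold higher, and Cx3cr1 was level at 1.02-fold. Thus 5 of 10 exceeded 2-fold, a share of 50.0%, against 5.60% of all genes tested. The scavenger gene Lyve1, shared by macrophages and lymphatic endothelium, had 32.9 CPM there against 2.96 to 5.73 CPM elsewhere. Lysosome genes, which every cell expresses, had a median ratio of 1.08. Many results that use untreated KO islets are therefore given with and without this library. Where a result is given once and no library is named as left out, it used all 18 libraries.

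**Figure D1:**
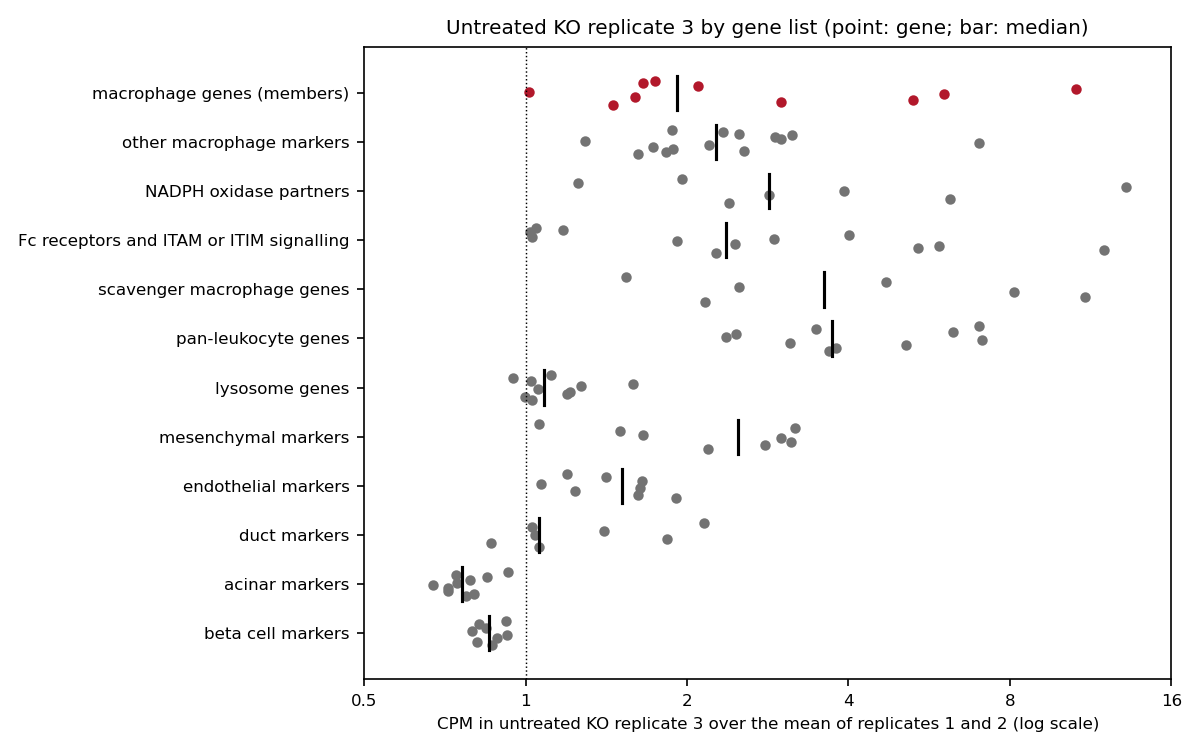
Ratio of CPM in untreated KO replicate 3 to the mean of untreated KO replicates 1 and 2 on a log axis, 1 point per gene and a bar at the median of each list. The macrophage genes spread from 1.02 for Cx3cr1 to 10.6 for Mrc1, and all 10 pan-leukocyte genes lie above 2, while acinar and beta cell markers lie below 1.

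Per kilobase of annotated exon, the genes differed widely in level. Over the 17 libraries without untreated KO replicate 3, the median was 37.9 CPM per kb for Cd68 and 27.5 CPM per kb for C1qa. Their ranges, 25.8 to 46.9 and 18.8 to 34.2 CPM per kb, overlapped. Lyz2 followed with a median of 14.1 CPM per kb and the range 7.06 to 30.8, which reached into that of C1qa. Csf1r came next at 1.75 CPM per kb, with a range of 1.13 to 2.39 that lay below every value of Lyz2. Itgax at 0.759, Cybb at 0.619, Cx3cr1 at 0.477, Mrc1 at 0.474, Lair1 at 0.338 and Itgam at 0.317 CPM per kb formed a low group whose neighbouring ranges overlapped. The exon lengths are unions over annotated transcripts, so the order of close neighbours depends on them.

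The genes also differed in how much they varied. Across the same 17 libraries the highest CPM was 1.82 times the lowest for Cd68 and 1.81 times for C1qa, against 11.3 times for Cx3cr1, 6.01 times for Itgam and 5.52 times for Mrc1. Cx3cr1, Itgam, Mrc1 and Lair1 had fewer reads than the others, with lowest counts of 16, 17, 29 and 30 reads in a library, and their fold changes carry more counting error than those of Cd68, with at least 799 reads.

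**Figure D2:**
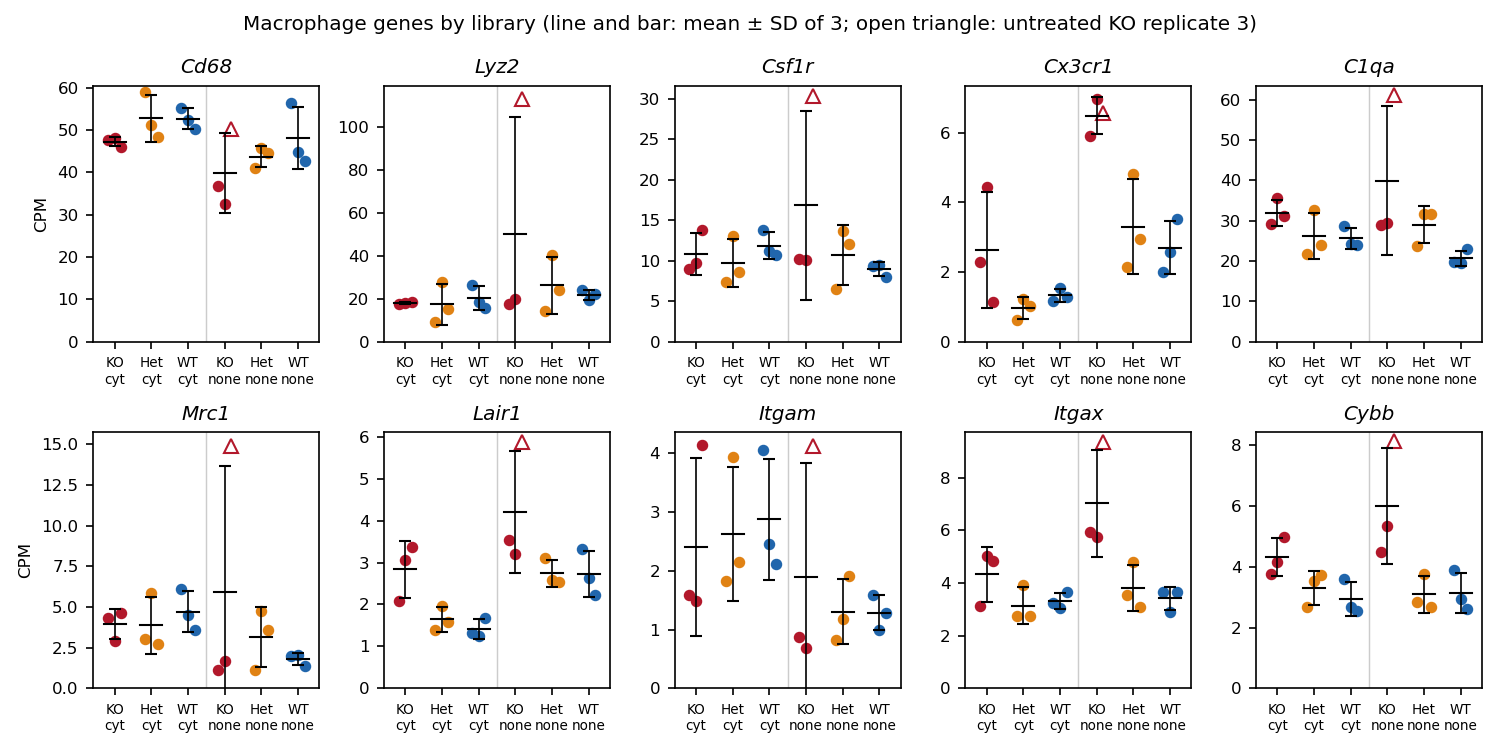
CPM of each gene in every library, for cytokine-treated (cyt) and untreated (none) KO, Het and WT islets, with the mean and SD of the 3 libraries of each group. The open triangle is untreated KO replicate 3, which is the highest library for 7 of the 10 genes and not for Cx3cr1, Cd68 and Itgam.

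Cytokines lowered a minority of the genes and raised none when all libraries were used. In KO islets 2 of the 10 fell and 0 rose, when 16.1% of all genes tested fell and 15.4% rose, 31.5% in all, by edgeR's quasi-likelihood test with the adjusted p threshold at 0.05. Het islets also had 2 lower and 0 higher, beside 11.8% of all genes lower and 12.8% higher, 24.6% in all. WT islets had 1 lower and 0 higher, beside 13.1% lower and 12.6% higher, 25.8% in all. These shares lie near those of all genes and are not a result about the set. The median log2 fold change of the 10 genes was -0.58 in KO, -0.15 in Het and 0.04 in WT islets, beside -0.03, -0.03 and -0.01 over all genes.

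The KO counts differed when untreated KO replicate 3 was left out. Then 3 of 10 rose and 1 fell in KO islets, where 14.1% of all genes rose and 14.9% fell, 28.9% in all, and the median log2 fold change became 0.02. In WT islets 1 rose and 1 fell, with 12.8% and 12.9% of all genes, 25.7% in all. In Het islets 2 fell, with 11.7% of all genes lower and 24.5% called in all. The gene by gene account follows the genes' roles.

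**Figure D3:**
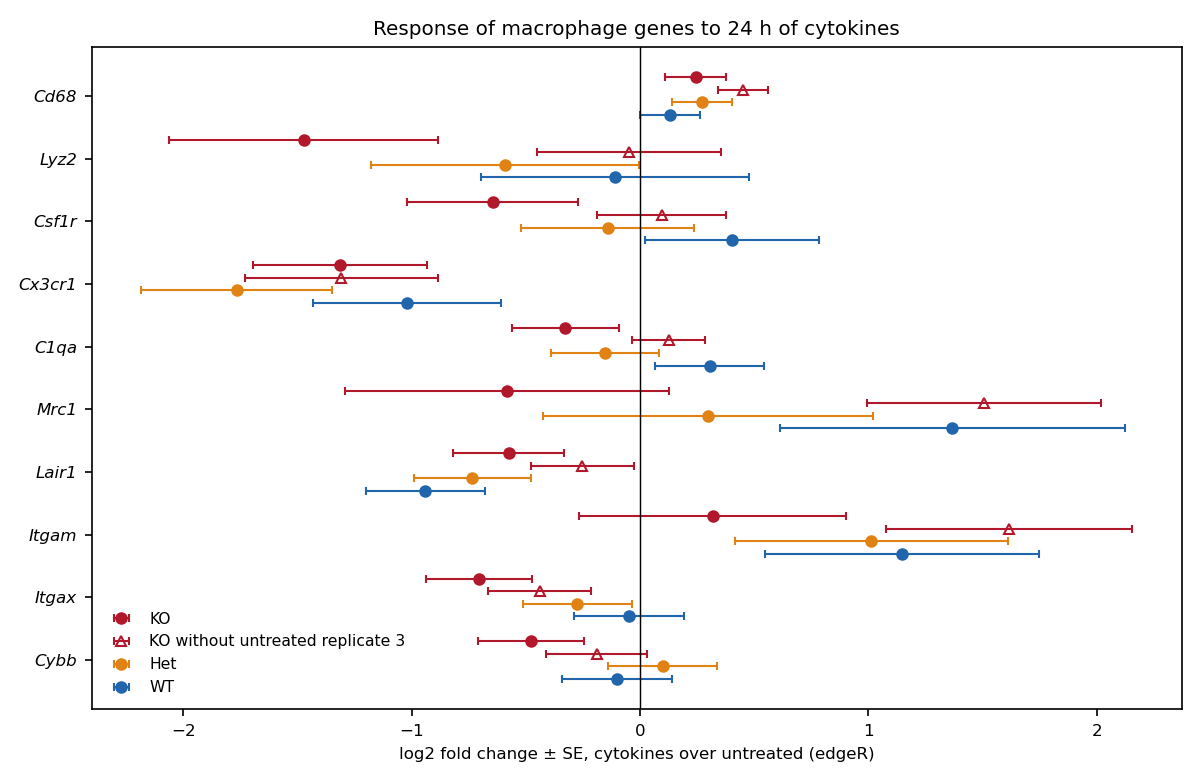
log2 fold change of each gene, cytokine-treated over untreated islets, with its SE from edgeR, for KO, Het and WT islets. Open triangles give KO islets without untreated replicate 3. Cx3cr1 and Lair1 lie below 0 in each genotype, and the KO values of Mrc1, Itgam, Lyz2 and Csf1r move to the right when that library is left out.

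Cx3cr1, on chromosome 9 (119901616 to 120069879, minus strand), encodes the receptor for fractalkine, through which macrophages and monocytes attach and receive survival signals. Treated islets had 2.29, 4.44 and 1.15 CPM in KO, 0.620, 1.24 and 1.04 CPM in Het islets and 1.16, 1.54 and 1.29 CPM in WT. Untreated islets had 5.92, 6.98 and 6.56 CPM in KO, 2.15, 4.82 and 2.94 CPM in Het islets and 2.01, 2.58 and 3.52 CPM in WT. Treated and untreated libraries did not overlap in any of the 3 genotypes, with the treated ones lower. Groups separated in this direction for 22.6%, 17.4% and 23.4% of all genes in KO, Het and WT islets.

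The Cx3cr1 log2 fold change was -1.31 ± 0.38 (SE, n = 3 each) in KO islets, with an edgeR adjusted p of 0.016. In Het islets it was -1.77 ± 0.42 with an edgeR adjusted p of 0.0057, the one call among the 10 genes that held under all 25 alternative settings, where the adjusted p ran from 0.00030 to 0.035. WT islets gave -1.02 ± 0.41 with an edgeR adjusted p of 0.083, which misses the threshold. It passed in 5 of 25 alternatives, with adjusted p from 0.014 to 0.26, among them the fits without treated KO replicate 2 or 3, with limma and with only the groups compared. The KO call was lost without treated KO replicate 1 (-1.23, edgeR adjusted p = 0.062) or replicate 3 (-0.95, 0.057), and its adjusted p ran from 0.00022 to 0.066 over the alternatives. Leaving out untreated KO replicate 3 left the KO value at -1.31, with an edgeR adjusted p of 0.031.

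The response of Cx3cr1 was not found to differ between genotypes. The response in KO minus that in WT was -0.30 ± 0.56, an interval of 2 SE from -1.42 to 0.83, with an edgeR adjusted p of 0.96, and in Het minus WT it was -0.75 ± 0.59 with 0.87. Cx3cl1, the ligand fractalkine, had log2 fold changes of 0.25 ± 0.21 in KO, -0.04 ± 0.20 in Het and 0.37 ± 0.21 in WT islets, and edgeR called none of them.

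Between genotypes, all 3 untreated KO libraries had more Cx3cr1 than any untreated Het or WT library, as 5.07% and 11.0% of all genes did. The difference from WT was 1.26 ± 0.38 with an edgeR adjusted p of 0.085, and without untreated KO replicate 3 it was 1.25 ± 0.42 with 0.12. With cytokines KO minus WT was 0.97 ± 0.41 with an edgeR adjusted p of 0.17, and treated KO replicate 3 lay below every treated WT library. Neither difference passed the threshold when all libraries were used. The untreated one passed in 5 of 25 alternatives, with adjusted p from 0.0067 to 0.30: with DESeq2, with limma, with only the groups compared, and without treated KO replicate 2 or 3. The treated one passed without treated KO replicate 3 (1.33, edgeR adjusted p = 0.043). Het minus WT was 0.29 ± 0.38 untreated and -0.46 ± 0.44 with cytokines.

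Lair1, on chromosome 7 (4003402 to 4063204, minus strand), encodes an inhibitory receptor that binds collagen and carries tyrosine motifs recruiting phosphatases. Treated islets had 2.08, 3.05 and 3.38 CPM in KO, 1.39, 1.97 and 1.57 CPM in Het islets and 1.32, 1.25 and 1.68 CPM in WT. Untreated islets had 3.53, 3.21 and 5.87 CPM in KO, 3.11, 2.59 and 2.53 CPM in Het islets and 3.32, 2.62 and 2.24 CPM in WT. In Het and in WT islets every treated library lay below every untreated one, as for 17.4% and 23.4% of all genes. In KO islets treated replicate 3 lay above untreated replicate 2.

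Lair1 fell with cytokines by 0.94 ± 0.26 on the log2 scale in WT islets (edgeR adjusted p = 0.015) and by 0.73 ± 0.25 in Het islets (edgeR adjusted p = 0.047). In KO islets the value was -0.57 ± 0.24 with an edgeR adjusted p of 0.087, and -0.25 ± 0.23 with 0.45 without untreated KO replicate 3. The WT call was lost without treated WT replicate 1 (-0.89), treated WT replicate 2 (-0.84) or untreated WT replicate 1 (-0.77), with edgeR adjusted p from 0.054 to 0.068. The Het call stood close to the threshold. It was lost in 11 of the 18 fits that left out 1 library (values from -0.79 to -0.63, edgeR adjusted p from 0.051 to 0.15): without treated Het replicate 1 or 3, any untreated Het replicate, any treated WT replicate, treated KO replicate 2, untreated KO replicate 1 or untreated WT replicate 2. The KO response minus the WT response was 0.37 ± 0.36 with an edgeR adjusted p of 0.92, and without untreated KO replicate 3 it was 0.69 ± 0.32 with 0.85.

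Lair1 was the 1 of the 10 genes called higher in treated KO than in treated WT islets, by 0.99 ± 0.26 on the log2 scale with an edgeR adjusted p of 0.039, when 1.48% of all genes were called higher and 5.34% in all. All 3 KO values lay above all 3 WT values, as for 14.5% of all genes. The call was lost without treated KO replicate 2 (0.94) or 3 (0.84), without treated WT replicate 1 (0.94), 2 (0.92) or 3 (1.13), without treated Het replicate 3 (0.99) and without untreated WT replicate 2 (0.99), with edgeR adjusted p from 0.0504 to 0.15. It was also lost with only the groups compared (0.99, 0.071), and held in 16 of 25 alternatives. It stayed at 0.99 when untreated KO replicate 3 was left out, with an SE of 0.22 and an edgeR adjusted p of 0.020, where 1.59% of all genes were called higher and 5.64% in all. In treated KO minus treated Het islets the value was 0.78 ± 0.26 with an edgeR adjusted p of 0.46.

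Mrc1, on chromosome 2 (14229392 to 14332057, plus strand), encodes the mannose receptor CD206, which takes up glycoproteins. Treated islets had 4.34, 2.92 and 4.65 CPM in KO, 3.02, 5.87 and 2.72 CPM in Het islets and 6.07, 4.51 and 3.57 CPM in WT. Untreated islets had 1.10, 1.70 and 14.9 CPM in KO, 1.13, 4.75 and 3.57 CPM in Het islets and 2.01, 2.07 and 1.39 CPM in WT. Treated WT libraries all lay above the untreated ones, as 23.1% of all genes did, and Het groups overlapped. In KO islets replicate 3 of the untreated group was the highest of all 18 libraries and the other 2 were below every treated library.

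That library set the sign of the Mrc1 response in KO islets. With it the log2 fold change was -0.58 ± 0.71 with an edgeR adjusted p of 0.58. Without it the value was 1.51 ± 0.51 with an edgeR adjusted p of 0.039, and over the 25 alternatives the adjusted p ran from 0.039 to 0.87. In WT islets the value was 1.37 ± 0.75 with an edgeR adjusted p of 0.20, and 1.37 ± 0.43 with 0.030 once that library no longer entered the shared estimate of the spread. The range over the alternatives was 0.0032 to 0.39. In Het islets it was 0.30 ± 0.72 with an edgeR adjusted p of 0.81, in a group whose untreated replicates ran from 1.13 to 4.75 CPM.

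C1qa, on chromosome 4 (136895917 to 136898803, minus strand), encodes 1 of the chains of C1q, the recognition molecule of the classical complement pathway. Treated islets had 29.1, 35.5 and 31.2 CPM in KO, 21.8, 32.6 and 24.0 CPM in Het islets and 28.6, 24.2 and 24.1 CPM in WT. Untreated islets had 29.0, 29.5 and 61.3 CPM in KO, 23.9, 31.7 and 31.6 CPM in Het islets and 19.8, 19.6 and 22.9 CPM in WT. Every untreated KO and Het library was above every untreated WT library, as for 11.0% and 3.46% of all genes. Treated WT libraries lay above the untreated ones, as for 23.1% of all genes. Cytokines were not followed by a called change: the log2 fold change was -0.33 ± 0.23 in KO, -0.15 ± 0.24 in Het and 0.31 ± 0.24 in WT islets, with edgeR adjusted p of 0.32, 0.69 and 0.38. Over the 25 alternatives, which include the fit without untreated KO replicate 3, the KO value ran from -0.50 to 0.13. The WT value passed in 1 of the 25, with only the groups compared (0.31, edgeR adjusted p = 0.034).

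Of the other complement C1 genes, C1qb and C1qc encode the partner chains and C1ra and C1s1 the proteases. C1ra rose by 3.44 ± 0.29 in KO, 2.80 ± 0.27 in Het and 2.65 ± 0.27 in WT islets on the log2 scale, with edgeR adjusted p of 2.5e-07, 2.0e-06 and 4.4e-06. It was the 1 of the 4 called in each genotype. C1qb and C1qc, at 40.3 and 41.4 CPM in untreated KO replicate 3 and 7.98 to 21.4 CPM elsewhere, were not called, and C1ra is also made by cells other than macrophages.

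Csf1r, on chromosome 18 (61100598 to 61132149, plus strand), encodes the receptor for CSF1 and IL-34 on which tissue macrophages depend. Treated islets had 9.03, 9.69 and 13.8 CPM in KO, 7.43, 13.1 and 8.61 CPM in Het islets and 13.8, 11.2 and 10.7 CPM in WT. Untreated islets had 10.2, 10.1 and 30.4 CPM in KO, 6.52, 13.6 and 12.1 CPM in Het islets and 9.39, 9.53 and 8.03 CPM in WT. The groups overlapped in KO and in Het, and treated WT libraries lay above untreated ones, as for 23.1% of all genes. The log2 fold change with cytokines was -0.64 ± 0.37 in KO, -0.14 ± 0.38 in Het and 0.40 ± 0.38 in WT islets, none called by edgeR, and 0.10 ± 0.28 in KO without untreated replicate 3. The WT value passed in 1 of 25 alternatives, with only the groups compared (0.41, edgeR adjusted p = 0.034).

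Both ligands of this receptor had higher levels with cytokines in at least 1 genotype. Il34 rose by 1.29 ± 0.17 in KO, 0.78 ± 0.16 in Het and 0.85 ± 0.16 in WT islets on the log2 scale, with edgeR adjusted p of 2.5e-05, 0.0023 and 0.0012. Csf1 rose in WT by 0.91 ± 0.29 (edgeR adjusted p = 0.029) and had 0.73 ± 0.29 in KO and 0.59 ± 0.29 in Het islets, with edgeR adjusted p of 0.067 and 0.15. In this list of 10 ligands and lineage regulators, 2 were called higher and 1 lower in KO, 2 higher in Het and 3 higher in WT islets. Cebpa, a myeloid transcription factor, was among those higher in each genotype. Spi1 had -0.44 ± 0.40 in KO, -0.06 ± 0.40 in Het and 0.39 ± 0.41 in WT islets and was not called.

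Cd68, on chromosome 11 (69664213 to 69666153, minus strand), encodes a glycoprotein of late endosomes and lysosomes and varied about as little as C1qa. Treated islets had 47.6, 48.1 and 46.0 CPM in KO, 59.0, 51.1 and 48.3 CPM in Het islets and 55.3, 52.4 and 50.3 CPM in WT. Untreated islets had 36.7, 32.4 and 50.3 CPM in KO, 41.0, 45.7 and 44.5 CPM in Het islets and 56.4, 44.9 and 42.8 CPM in WT. Treated Het libraries lay above untreated ones, as for 17.7% of all genes, and the KO groups overlapped only through untreated replicate 3. The log2 fold change was 0.24 ± 0.13 in KO, 0.27 ± 0.13 in Het and 0.13 ± 0.13 in WT islets, with edgeR adjusted p of 0.18, 0.15 and 0.51.

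Without untreated KO replicate 3, Cd68 rose with cytokines in KO islets by 0.45 ± 0.11 on the log2 scale, with an edgeR adjusted p of 0.0063 and a range of 0.0063 to 0.56 over the alternatives. Untreated KO minus WT then was -0.47 ± 0.11 with an edgeR adjusted p of 0.041, against -0.27 ± 0.13 with 0.30 when all libraries were used and 0.041 to 0.71 over the alternatives. This was the 1 gene of the 10 called between untreated KO and WT islets in that fit, where 1.76% of all genes were called lower and 2.23% in all.

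Of 10 other lysosome genes, 5 were called higher and 2 lower with cytokines in KO, 4 higher and 1 lower in Het, and 3 higher and 2 lower in WT islets. Ctsl, a cathepsin made in many cell types, rose by 2.27 ± 0.16, 1.75 ± 0.16 and 1.45 ± 0.16 on the log2 scale in KO, Het and WT islets, with edgeR adjusted p of 4.1e-08, 7.5e-07 and 6.2e-06. Npc2, a lysosomal cholesterol carrier, fell by 0.30 ± 0.05, 0.19 ± 0.05 and 0.22 ± 0.05.

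Lyz2, on chromosome 10 (117277331 to 117282321, minus strand), encodes the lysozyme of macrophages and granulocytes, which cuts bacterial cell walls. Treated islets had 17.7, 18.1 and 18.6 CPM in KO, 9.29, 27.7 and 15.2 CPM in Het islets and 26.6, 18.6 and 15.7 CPM in WT. Untreated islets had 17.5, 20.0 and 113 CPM in KO, 14.2, 40.6 and 23.9 CPM in Het islets and 23.9, 19.4 and 22.3 CPM in WT. Groups overlapped in all 3 genotypes. The log2 fold change was -1.47 ± 0.59 in KO, -0.59 ± 0.59 in Het and -0.11 ± 0.59 in WT islets, with edgeR adjusted p of 0.070, 0.52 and 0.91, and -0.05 ± 0.40 in KO without untreated replicate 3. Without untreated KO replicate 1 or 2, which leaves replicate 3 more weight, the KO values were -1.86 and -1.85 and passed, with edgeR adjusted p of 0.024 and 0.031 among alternatives that reached 0.95.

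Itgam and Itgax, next to each other on chromosome 7 (128062640 to 128118491 and 128129547 to 128150657, plus strand), encode the integrin alpha chains CD11b and CD11c. Both chains pair with the product of Itgb2 for adhesion and uptake of complement-coated particles. Itgam in treated islets had 1.59, 1.48 and 4.15 CPM in KO, 1.82, 3.94 and 2.14 CPM in Het islets and 4.05, 2.46 and 2.12 CPM in WT. In untreated islets it had 0.872, 0.690 and 4.13 CPM in KO, 0.819, 1.19 and 1.90 CPM in Het islets and 1.59, 0.993 and 1.28 CPM in WT. Treated WT libraries lay above untreated ones, as for 23.1% of all genes, and the KO and Het groups overlapped, through untreated replicate 3 in each.

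The log2 fold change of Itgam was 0.32 ± 0.58 in KO, 1.01 ± 0.60 in Het and 1.15 ± 0.60 in WT islets, with edgeR adjusted p of 0.72, 0.25 and 0.18. The WT value passed in 3 of 25 alternatives, among them with only the groups compared (0.018) and with limma (0.046), and its adjusted p ran from 0.018 to 0.44. The Het value passed in 1 of 25, with adjusted p from 0.042 to 0.58. Without untreated KO replicate 3 it was 1.62 ± 0.54 in KO islets, with an edgeR adjusted p of 0.036 that was the lowest of a range up to 0.99 over the alternatives. Treated KO replicate 3, at 4.15 CPM, was as high as that untreated library, so 1 library of each KO group carried Itgam at over 4 CPM.

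Itgax in treated islets had 3.14, 5.02 and 4.84 CPM in KO, 2.75, 3.94 and 2.75 CPM in Het islets and 3.22, 3.05 and 3.64 CPM in WT. In untreated islets it had 5.95, 5.76 and 9.37 CPM in KO, 3.55, 4.79 and 3.08 CPM in Het islets and 3.67, 2.90 and 3.67 CPM in WT. All 3 treated KO libraries were below all 3 untreated ones, as for 22.6% of all genes, and the Het and WT groups overlapped. The fall in KO islets was -0.70 ± 0.23 with an edgeR adjusted p of 0.030. It was lost without untreated KO replicate 3 (-0.44, edgeR adjusted p = 0.17) and without treated KO replicate 1 (-0.51, 0.14), and ranged from 0.0025 to 0.17. Het and WT islets had -0.27 ± 0.24 and -0.05 ± 0.24, and the KO minus WT response was -0.66 ± 0.33 with an edgeR adjusted p of 0.77.

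Of 5 genes listed as integrin partners and ligands, Icam1, a ligand of these integrins, was called in each genotype. It rose by 3.26 ± 0.44 in KO, 2.38 ± 0.41 in Het and 2.69 ± 0.42 in WT islets on the log2 scale, with edgeR adjusted p of 3.5e-05, 0.00052 and 0.00022. Itgb2 itself had -0.42 ± 0.45, 0.03 ± 0.46 and 0.41 ± 0.46 and was not called.

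Cybb, on the X chromosome (9435252 to 9487771, minus strand), encodes the catalytic subunit of the phagocyte NADPH oxidase. Treated islets had 3.77, 4.17 and 4.99 CPM in KO, 2.67, 3.54 and 3.72 CPM in Het islets and 3.60, 2.67 and 2.55 CPM in WT. Untreated islets had 4.47, 5.36 and 8.13 CPM in KO, 2.83, 3.78 and 2.67 CPM in Het islets and 3.88, 2.94 and 2.60 CPM in WT. Every KO library was above every WT library of the same treatment, as for 14.5% of all genes with cytokines and 11.0% untreated. Treated and untreated groups overlapped in each genotype. The cytokine log2 fold change was -0.48 ± 0.23 in KO, 0.10 ± 0.24 in Het and -0.10 ± 0.24 in WT islets, none called by edgeR. Over the 25 alternatives, which include the fit without untreated KO replicate 3, the KO value ran from -0.63 to -0.19 and passed in 1.

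Among 7 oxidase partners and related oxidases, 1 was called higher and 1 lower in KO, 2 higher and 1 lower in Het and 2 higher in WT islets. Nox1 rose in each genotype, by 1.96 ± 0.52, 2.78 ± 0.53 and 3.11 ± 0.63 in KO, Het and WT islets, from levels of at most 0.197 CPM in untreated libraries. The edgeR adjusted p were 0.0089, 0.0012 and 0.0019. Cyba, which encodes the membrane partner of the catalytic subunit, rose by 0.90 ± 0.31 in Het (edgeR adjusted p = 0.049) and 1.28 ± 0.32 in WT islets (0.0078). Without untreated KO replicate 3 it rose in KO islets too, by 1.24 ± 0.28 (edgeR adjusted p = 0.0034), with Rac2 and Ncf4, other parts of the phagocyte oxidase, at 1.73 ± 0.40 and 1.29 ± 0.35.

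Between untreated KO and WT islets, 3 of the 10 genes were called higher and 0 lower when all libraries were used, against 0.563% of all genes higher and 2.48% lower, 3.04% in all. They were Itgax (1.04 ± 0.23, edgeR adjusted p = 0.027), C1qa (0.95 ± 0.24, 0.0437) and Cybb (0.93 ± 0.23, 0.0438). None of the 3 held without untreated KO replicate 3: Itgax then had 0.78 ± 0.23 with an edgeR adjusted p of 0.081, C1qa 0.49 ± 0.16 with 0.11 and Cybb 0.64 ± 0.22 with 0.13. The log2 fold changes kept their sign, and the other 2 untreated KO libraries lay above all 3 untreated WT libraries for each of these genes. Over the 25 alternatives the adjusted p ran from 0.0018 to 0.10 for Itgax, 0.0027 to 0.17 for C1qa and 0.0073 to 0.15 for Cybb.

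Libraries other than that one also decided these calls. The Itgax call was lost without untreated KO replicate 1 (1.16) or any 1 of the untreated WT replicates (0.94 to 1.10). The C1qa call was lost in 13 of the 18 fits that left out 1 library, with log2 values of 0.49 to 1.02: without any 1 of the treated KO, treated WT or untreated WT replicates, treated Het replicate 1 or 3, untreated KO replicate 3 or untreated Het replicate 2. The Cybb call was lost in 11 of them, with log2 values of 0.64 to 1.11: without treated KO replicate 1 or 2, treated Het replicate 2 or 3, treated WT replicate 2 or 3, untreated KO replicate 2 or 3, or any 1 of the untreated WT replicates.

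The other genes divided by whether they rested on that library. Mrc1 had a log2 fold change of 1.71 ± 0.75 in untreated KO minus WT islets with it and -0.38 ± 0.53 without it. Lyz2 had 1.20 ± 0.58 with it and -0.22 ± 0.40 without it, and Itgam 0.58 ± 0.61 with it and -0.72 ± 0.55 without it. Csf1r had 0.92 ± 0.38 with it and 0.18 ± 0.28 without it. None of these values passed the test in either fit. The median over the 10 genes was 0.94 with it and 0.24 without it, and that over all genes was 0.00 in both.

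KO and WT islets also differed in markers of other cells. Of 10 acinar markers, 9 were called lower in untreated KO and 10 in treated KO than in WT islets of the same treatment. Their summed level was 1416 to 2204 CPM in untreated KO, 2667 to 4075 CPM in untreated Het and 7342 to 7631 CPM in untreated WT islets. With cytokines it was 665 to 1592 CPM in KO, 2596 to 3950 CPM in Het islets and 5185 to 9822 CPM in WT. Of 8 endothelial markers 1 was called lower in untreated KO, 3 without replicate 3, and 5 in treated KO islets, with sums of 189 to 292 CPM against 345 to 447 CPM untreated and 126 to 213 CPM against 281 to 438 CPM with cytokines. Apart from the acinar gene Rbpjl, each marker of these lists had reads in every library, and their part in the results on macrophage genes was not tested.

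**Figure D4:**
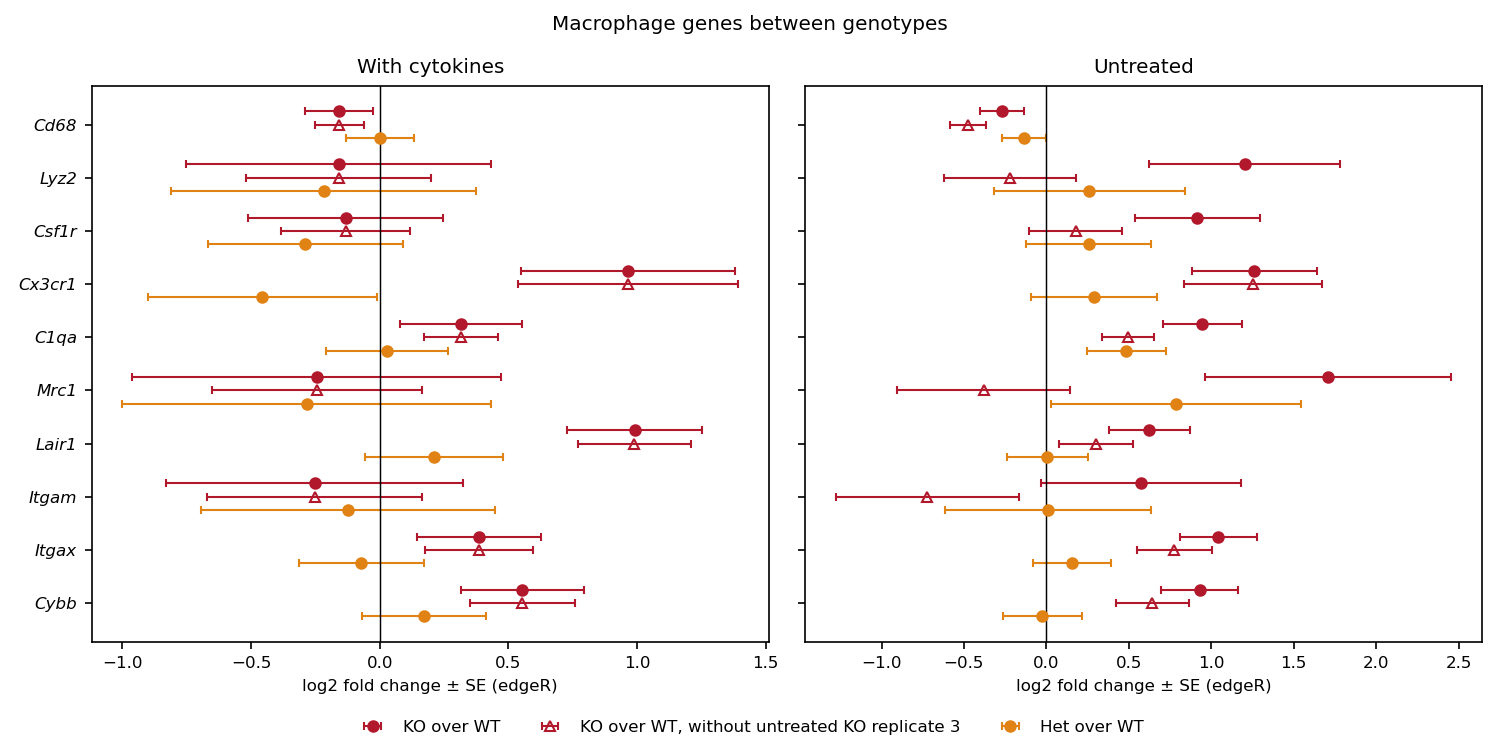
log2 fold change of each gene with its SE from edgeR, KO over WT and Het over WT, with cytokines on the left and untreated on the right. Open triangles leave out untreated KO replicate 3: at right the KO values of Mrc1, Lyz2 and Itgam cross 0 without it, while those of Cx3cr1, Itgax, C1qa and Cybb stay above 0.

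With cytokines, where the 10 genes summed to between 110 and 145 CPM in every library, Lair1 was the 1 call between KO and WT islets, and 3.85% of all genes were lower. Cybb had 0.55 ± 0.24 with an edgeR adjusted p of 0.17, Itgax 0.39 ± 0.24 with 0.34 and C1qa 0.32 ± 0.24 with 0.44. Treated KO libraries lay above treated WT libraries for C1qa, Cybb and Lair1 and below them for Cd68, whose value was -0.16 ± 0.13. Groups separated in these directions for 14.5% and 16.0% of all genes.

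Het islets were not separable from WT islets in any of the 10 genes by edgeR, with 0 called untreated, where 0.00569% of all genes were called, and 0 called with cytokines, where 0% were. At an unadjusted p under 0.05 the count was also 0 of 10 in both, and neither DESeq2 nor limma called any. In the untreated comparison DESeq2 gave no adjusted p for Itgam, Itgax, Cx3cr1, Mrc1, Cybb and Lair1. It could not call these 6 genes there. Leaving out untreated KO replicate 3 also gave 0 calls in both, where 0.00559% and 0% of all genes were called, with 1 and 0 unadjusted p under 0.05. The widest intervals of 2 SE untreated were those of Mrc1, from -0.73 to 2.31, and Itgam, from -1.24 to 1.26, so differences of more than 2-fold in these genes were within the error. Untreated KO minus Het gave 0 calls, when 0.00569% of all genes were called, which is 1 gene. That share rested on untreated Het replicate 1: without it 1926 genes were called, Cybb among them (0.90, edgeR adjusted p = 0.047). With all libraries, 4 of the 10 had an unadjusted p under 0.05 in untreated KO minus Het. DESeq2 called 2 there, Itgax (0.89) and Cybb (0.96), and limma called Cybb at 0.69. When untreated KO replicate 3 was left out, that comparison gave 0 calls by edgeR, with 0% of all genes and 5 unadjusted p under 0.05. Treated KO minus Het gave 0 calls, with 0% of all genes, 2 unadjusted p under 0.05 and none by DESeq2 or limma.

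No response differed between genotypes among the 10 genes. The 3 tests of KO against WT, Het against WT and KO against Het responses gave 0 calls each, beside 0.0114%, 0% and 0% of all genes, and 0 of 10 had an unadjusted p under 0.05 in any of them. DESeq2 and limma called none either. When that library was left out edgeR again called 0, with 2, 1 and 0 unadjusted p under 0.05. The SE of the KO minus WT response ran from 0.19 for Cd68 to 1.03 for Mrc1, so only large differences in response would have been called for the low genes.

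The genes did not vary as 1 block within groups. After the mean of each group was subtracted from log2 CPM, the median Pearson r over the 45 pairs of genes was 0.62 with all 18 libraries, and 41 pairs were positive. In the 17 libraries other than untreated KO replicate 3 the median was 0.32 and 39 pairs were positive. The closest pair in those 17 libraries was Csf1r with Mrc1 (r = 0.88), followed by Lyz2 with C1qa and Csf1r with Lyz2 (both 0.84). The most opposed pair was Itgam with Cx3cr1 (-0.29). Depth differs little between libraries, and these correlations are descriptions without a test.

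Set against the mean of the other 9 genes in the 17 libraries, Lyz2 (0.93), Csf1r (0.91), C1qa (0.83) and Mrc1 (0.72) followed the rest closely. Cybb (0.60), Itgax (0.55) and Itgam (0.55) did so less. Lair1 (0.18), Cx3cr1 (0.15) and Cd68 (0.11) hardly followed it. With the 18th library these last 3 were at 0.58, 0.09 and 0.63, so only Cx3cr1 stayed apart in both.

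Of 14399 other genes with a mean of at least 1 CPM, the 5 whose group-centred levels were most like the mean of the set over 18 libraries were Msr1 (r = 0.989), Spi1 (0.982), Itgb2 (0.975), Laptm5 (0.974) and Ctss (0.971). Msr1 encodes a scavenger receptor and Ctss a cathepsin of antigen-presenting cells. Over the 17 libraries they ranked 1, 3, 10, 7 and 2, with r from 0.93 to 0.98. Msr1 had 14.5, 18.5 and 18.8 CPM in treated KO, 10.8, 19.7 and 12.0 CPM in treated Het and 19.6, 14.0 and 13.5 CPM in treated WT islets. Untreated islets had 9.90, 10.1 and 29.2 CPM in KO, 7.71, 15.7 and 12.6 CPM in Het islets and 9.84, 8.54 and 9.10 CPM in WT. It was highest in the same untreated KO library, and in each treatment Het replicate 2 exceeded Het replicate 1.

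**Figure D5:**
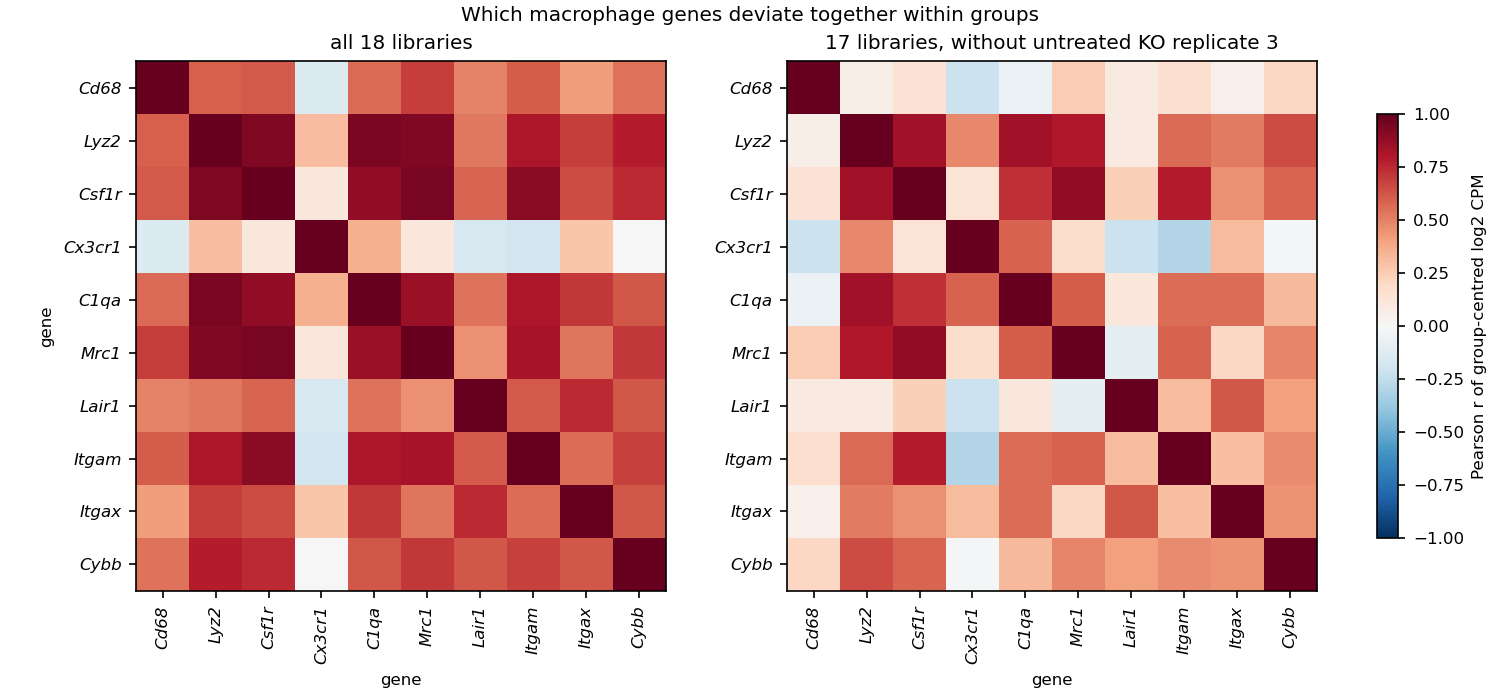
Pearson r between group-centred log2 CPM of each pair of the 10 genes, with all 18 libraries on the left and with the 17 libraries other than untreated KO replicate 3 on the right. Lyz2, Csf1r, C1qa and Mrc1 are dark against each other on the left, and on the right their pairs run from 0.61 to 0.88. Cd68 and Lair1 fade on the right, and Cx3cr1 is pale against most genes in both.

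Further macrophage genes were taken from lists. Of 14 other macrophage markers tested, 1 was called higher and 1 lower with cytokines in KO, 0 in Het and 1 higher in WT islets. Cd14, a co-receptor for endotoxin that other cells also make, was the one called higher in KO and in WT, by 2.06 ± 0.47 and 2.24 ± 0.47 on the log2 scale (edgeR adjusted p = 0.0035 and 0.0022). Mpeg1, which encodes a pore-forming protein of macrophages, fell by 0.69 ± 0.25 in KO islets (edgeR adjusted p = 0.043). Untreated KO replicate 3, which entered that value, had 73.9 CPM of Mpeg1 against 41.3 and 39.6 CPM in untreated KO replicates 1 and 2. Of 12 Fc receptor and signalling genes, 1 was called lower in KO and none in Het or WT islets. Without untreated KO replicate 3, Fcgr2b, the inhibitory IgG receptor, rose by 2.14 ± 0.42 in KO, 1.03 ± 0.33 in Het and 1.83 ± 0.34 in WT islets, with edgeR adjusted p of 0.0015, 0.034 and 0.0011.

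The pan-leukocyte genes are expressed across immune cells, and cytokines lowered 1 of the 10 in KO islets. Arhgdib, which is expressed in blood cells and also in endothelium, fell by 1.20 ± 0.29 in KO islets (edgeR adjusted p = 0.0046), and without untreated replicate 3 by 0.66 ± 0.20 in KO (0.022) and 0.73 ± 0.18 in Het islets (0.0077). With all libraries edgeR called 0 of the 10 in Het and in WT islets. Their sums were 42.1 to 63.3 CPM in treated KO, 39.9 to 62.8 CPM in treated Het and 51.8 to 62.3 CPM in treated WT islets. Untreated they were 48.7 in both KO libraries other than replicate 3, 34.9 to 68.2 CPM in Het islets and 43.3 to 51.7 CPM in WT islets, so the treated and untreated ranges overlapped in KO and in Het islets, while every treated WT sum lay above every untreated WT sum.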

How the data were processed

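Whole-islet RNA from 18 libraries in 6 groups of 3 was used as the deposited table of raw read counts per gene, with no normalization by the authors. The submitters' processing notes name FastQC 0.11.7, cutadapt 1.16, STAR 2.5.2a, featureCounts 1.6.2, Subread, DESeq2 1.30.0 and build GRCm38. Whether counting used strand was not stated in the labels or headers.

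Groups came from the sample descriptions. CPM values are reads scaled to the library total times its TMM factor. edgeR 4.0.16 (R 4.3.3; filterByExpr with a count minimum of 10, TMM scaling, quasi-likelihood test) was fitted to all 18 libraries with 1 mean per group and 12 residual degrees of freedom, and p-values were adjusted by Benjamini-Hochberg over 17590 genes. The threshold was 0.05. SE was taken from the fold change and its F statistic. The script was tested on simulated data. The 12 comparisons were 3 of cytokines, 6 of genotypes and 3 of responses. All results were repeated without untreated KO replicate 3, which gave 17879 genes tested. Alternatives were other scaling, filters, gene set and samples, a replicate block, DESeq2 1.42.0, limma 3.58.1 and leaving out each library. A chi-square check of replicate counts found no duplicated library within a group, and libraries of different groups were not checked.

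All 10 genes are named. Other genes are named from lists when called by the test, when they are direct partners of a member, or when among the 5 closest in level. The members and lists were chosen with earlier results of these data known.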

Additional observations from a re-analysis of the deposited data

How the results depend on the processing

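Over 12 comparisons and 25 alternatives, 2895 of 2994 values of the 10 genes stayed on their side of the threshold with no called change of sign, 65 lost a call and 33 gained one. Most of the 2895 were called in neither fit, so that count does not measure how well calls held. Calls of the main fit held in 10 of 25 alternatives (C1qa, untreated KO against WT) to 25 of 25 (Cx3cr1, cytokines in Het islets). In 95 values the sign changed where neither fit passed, and such values were given no direction. DESeq2 gave no adjusted p for 6 values, all in untreated Het against WT islets. The 1 reversal was Mrc1 with cytokines in KO islets, which ran from -1.05 to 1.51 on the log2 scale leaving out 1 library each and reached 1.51 without untreated KO replicate 3; the values in the report show that library at 14.9 CPM. With cytokines in KO islets, 2 of the 10 genes were called, against 0 when only the groups compared were fitted, 4 with limma and 0 to 4 leaving out 1 library each. In Het islets 2 were called, against 1 without the filter, 1 with only the groups compared and 1 to 2 leaving out 1 library. In WT islets 1 was called, against 6 with only the groups compared, 4 with limma and 0 to 2 leaving out 1 library. With only the groups compared, Csf1r, Itgam, Mrc1 and C1qa were higher and Cx3cr1 and Lair1 lower in treated WT islets. For untreated KO against WT, 3 were called, against 4 with DESeq2 and with limma, 1 with only the groups compared, which was Cx3cr1 and none of the 3, and 0 to 3 leaving out 1 library. For untreated KO against Het, 0 were called, against 2 with DESeq2, 1 with limma and 0 to 1 leaving out 1 library. For treated KO against WT, 1 was called, against 0 with only the groups compared and 0 to 1 leaving out 1 library. For settings other than leaving out 1 library, the share of all genes called is not given, so those counts are not a result about the set. Across all genes, leaving out 1 library gave 4393 to 6020 cytokine calls around 5542 in KO islets. In Het islets it gave 3338 to 4406 around 4330, and in WT islets 3393 to 5039 around 4530. The cause of these changes was not tested.

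Not every pair of samples with the same replicate number deviated together. The correlation of their deviations was over 0.1 in 6 of 9 pairs within a genotype and 5 of 18 across genotypes. Of treated and untreated libraries of a genotype with different numbers, only KO 2 with 1 (0.28), Het 2 with 3 (0.25) and Het 3 with 1 (0.36) were over 0.1. The labels do not say whether treated and untreated cultures shared animals, and these values do not settle it. The main fit was left unpaired. For cytokines and responses, the replicate block joined treated and untreated libraries of a genotype by number, which gives the other case. With it and cytokines, 3 were called in Het islets, where Itgam was added (edgeR adjusted p = 0.042). In KO islets 3 were called, where Cybb was added (0.046), and 3 in WT islets, where Itgam (0.024) and Cx3cr1 (0.044) were added. For comparisons of genotypes, the block joined libraries by replicate number across all groups, which does not describe shared animals. There 1 was called for untreated KO against WT and 0 for treated KO against WT, where Lair1 had an edgeR adjusted p of 0.056. Across all genes, leaving out 1 library moved the calls from 139 to 1002 around 535 for untreated KO against WT, from 236 to 1762 around 939 for treated KO against WT, and from 0 to 1926 around 1 for untreated KO against Het. The median biological coefficient of variation was 10.3%. Low counts limit Cx3cr1, Itgam, Mrc1 and Lair1.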
